A study of Mus musculus with 10 samples.

Results

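The 10 genes described here make the peptides that MHC class I molecules show at the cell surface, and bring them to those molecules. They were picked out by gene symbol, from a list drawn up with earlier results of these data known, and each had 1 line among the 55020 lines of the deposited table. They are the inducible catalytic proteasome subunits Psmb8, Psmb9 and Psmb10, the proteasome activator subunits Psme1 and Psme2, the peptide transporter subunits Tap1 and Tap2, the loading chaperone Tapbp (tapasin), the trimming peptidase Erap1, and, as the contrast, the constitutive catalytic subunit Psmb5. RNA with poly-A tails was sequenced from 10 tumours of Hepa1-6, a mouse hepatoma cell line, injected under the skin of C57/BL6 mice and grown for 4 weeks. The GSK343 group holds 5 tumours of mice given that inhibitor of the histone methyltransferase EZH2, and the vehicle group holds 5 tumours taken as vehicle because their titles name no drug and the design text gives only these conditions. All tumours share the cell line and the host strain, and they are named as biological replicates. The treatment protocol also names 2 antibodies, a control and one directed at asialo-GM1 that depletes natural killer cells, without tying either to a tumour, and the dose of GSK343 is not given in the sources used here. Such tumours hold host leukocytes, stroma and vessels beside the hepatoma cells.

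The proteasome cuts cytosolic proteins into peptides. In cells exposed to interferon, and constitutively in most leukocytes, newly built proteasomes take up the subunits encoded by Psmb9, Psmb10 and Psmb8 in place of those encoded by Psmb6, Psmb7 and Psmb5, which gives the immunoproteasome. The PA28 ring of Psme1 and Psme2 opens the core, the TAP transporter moves peptides into the endoplasmic reticulum, Erap1 trims them there, and tapasin holds empty class I molecules at the transporter until a fitting peptide binds. EZH2 places a repressive methyl mark on histone H3, and loss of class I antigen processing is a known means by which tumour cells escape T cells.

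The genes lie in a few places of the genome (mm10, coordinates as deposited). Psmb9 (chromosome 17, 34181988 to 34187764, minus strand), Tap1 (34187553 to 34197225, plus strand), Psmb8 (34197721 to 34201454, plus strand) and Tap2 (34203527 to 34216321, plus strand) stand side by side within 34334 bases of the MHC region. Tapbp (33915899 to 33929288, plus strand) lies on the same chromosome. Psme1 (55578123 to 55581529, plus strand) and Psme2 (55587441 to 55591113, minus strand) lie 5911 bases apart on chromosome 14, which also carries Psmb5 (54614119 to 54618022, minus strand). Psmb10 (105935735 to 105938444, minus strand) is on chromosome 8 and Erap1 (74639568 to 74693201, plus strand) on chromosome 13. Exons of neighbouring genes overlap at some of these places. Psmb9 and Tap1 share 212 bases on opposite strands, and Erap1 shares 834 bases with Cast, the gene of the protease inhibitor calpastatin. Reads from those stretches cannot be told apart without the strand setting, which is not given in the sources used here. Exons of Tapbp overlap those of Zbtb22 by up to 88 bases on the same strand, where the strand setting could not tell reads apart.

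Promoter sequences are shown for the shared control region of Psmb9 and Tap1 and for the members whose window held a letter pattern of interferon-responsive elements. They are from RefSeq (GRCm38.p6), which held a window of 250 bases before to 50 bases after a start site for 9 of the 10 members; Tap2 was not matched. Capitals mark a match to the core of the interferon-stimulated response element (GAAA, any 2 letters and GAAA, or its reverse complement) or of the gamma-activated sequence (TTCNNNGAA, the same on both strands). The window of Tap1 (chr17:34187306-34187605, plus strand) covers 275 bases of that of Psmb9 (chr17:34187281-34187580, minus strand), and the start sites lie 226 bases apart and point away from each other.
Tap1 and Psmb9: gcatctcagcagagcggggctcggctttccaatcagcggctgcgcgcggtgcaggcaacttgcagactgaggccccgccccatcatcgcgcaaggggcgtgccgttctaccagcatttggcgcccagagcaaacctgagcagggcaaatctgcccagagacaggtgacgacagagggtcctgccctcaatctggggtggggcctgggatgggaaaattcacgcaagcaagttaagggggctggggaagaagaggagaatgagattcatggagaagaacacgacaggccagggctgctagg
Psmb8: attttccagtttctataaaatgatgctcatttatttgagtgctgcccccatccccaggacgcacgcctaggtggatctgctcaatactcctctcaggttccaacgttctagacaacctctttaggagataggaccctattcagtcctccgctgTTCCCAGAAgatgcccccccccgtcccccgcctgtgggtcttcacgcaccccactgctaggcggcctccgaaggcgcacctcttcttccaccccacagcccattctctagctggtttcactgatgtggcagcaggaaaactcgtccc
Psme1: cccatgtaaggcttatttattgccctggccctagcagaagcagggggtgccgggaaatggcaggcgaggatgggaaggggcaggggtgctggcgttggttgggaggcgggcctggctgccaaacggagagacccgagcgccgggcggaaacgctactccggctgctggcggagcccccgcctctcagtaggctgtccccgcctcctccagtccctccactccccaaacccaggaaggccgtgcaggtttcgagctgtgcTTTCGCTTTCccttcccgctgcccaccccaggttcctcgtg
Erap1: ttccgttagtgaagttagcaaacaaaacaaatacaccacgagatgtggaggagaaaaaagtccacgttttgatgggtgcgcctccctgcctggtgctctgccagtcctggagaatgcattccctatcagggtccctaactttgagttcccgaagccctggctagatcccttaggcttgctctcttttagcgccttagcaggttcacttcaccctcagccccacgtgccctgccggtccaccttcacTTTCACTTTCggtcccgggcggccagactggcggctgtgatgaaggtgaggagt
The first holds neither pattern. The window of Psmb8 (chr17:34197945-34198244, plus strand) held a gamma-activated pattern that begins 97 bases before the start site. The window of Psme1 (chr14:55578244-55578543, plus strand) held the interferon-stimulated pattern from base 10 of the transcript, and that of Erap1 (chr13:74639603-74639902, plus strand) held it from 4 bases before its start site. In all, 2 of the 9 members matched the first pattern and 1 matched the second, while 3.44% and 8.30% of the 32841 promoter windows of that length did. A GC box (GGGCGG or CCGCCC), common in promoters of housekeeping genes, was found in 6 of the 9 members, Psmb9 and Tap1 holding the same one, and in 35.7% of all windows. The 3 patterns do not overlap each other in these windows. A match is a pattern of letters, and it says nothing about binding in these tumours.

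The tumours held the hepatoma transcripts that the label calls for. Afp, the fetal liver protein that marks hepatoma cells, measured 1775 ± 251.6 FPKM in GSK343 tumours and 2085 ± 197 FPKM in vehicle tumours (SD, n = 5 each), and Alb, serum albumin, measured 2810.3 ± 278 and 3129 ± 318 FPKM. Levels of different genes can be compared in FPKM, which divides fragment numbers by exon length and by library size. The values of a tumour summed to 574547 to 623397 FPKM, and 13985 to 14714 lines per tumour reached 1 FPKM. The spacing of low values in genes with a single exon corresponds to 38.4 M to 50.8 M reads per tumour if 1 step is 1 read, which is an inference. Mitochondrial transcripts took 7.17% of the sum in GSK343 replicate 3 and 7.11% in GSK343 replicate 5, and 2.63% to 5.05% in the other tumours.

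The means of 9 of the 10 members were higher in GSK343 tumours, to 1.23 to 1.45 times those of vehicle tumours in 8 of them, but no member passed the test over all genes. Psme1 and Psmb5 had nearly equal means in both groups. Of all lines tested, 47.6% had a positive log2 fold change. Each gene was tested between the groups with limma on log2(FPKM + 1) over 14496 lines whose mean reached 1 FPKM, and a line was called at a Benjamini-Hochberg adjusted p under 0.05. The adjusted p of the members ran from 0.201 (Psmb9) to 0.946 (Psme1), and 0.0828% of all lines tested were called. At an unadjusted limma p under 0.05, 5 of the 10 members were higher and none lower (Psmb8, Psmb9, Tap1, Tapbp and Erap1), while 10.7% of all lines tested were higher at that level. The groups overlapped for all 10 members, and in 1.42% of lines every GSK343 tumour lay above every vehicle tumour. The median log2 fold change was 0.35 over the 9 members other than Psmb5 and -0.01 over all lines tested.

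**Figure D1:**
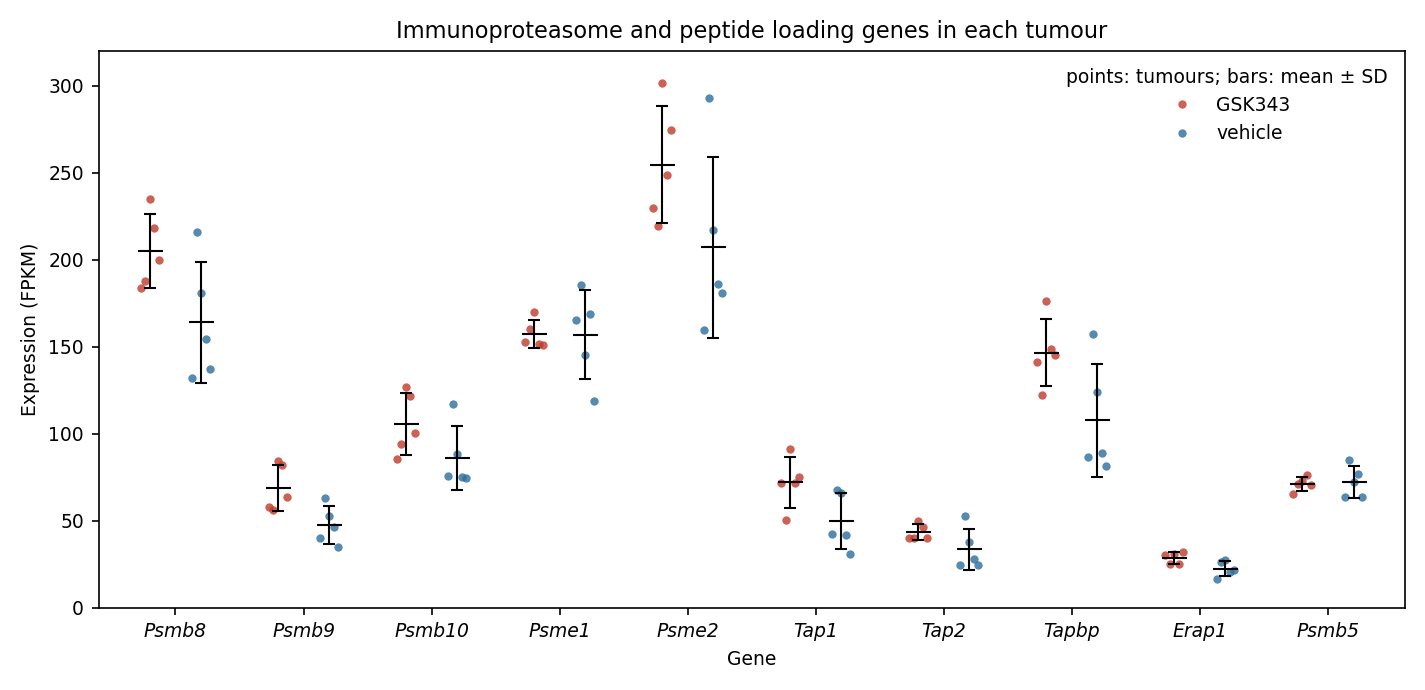
FPKM of the 10 genes in each tumour, GSK343 (red) left of vehicle (blue), with the mean and SD of 5 tumours as bars. For 8 genes the red points sit higher on average, with means 1.23 to 1.45 times those of vehicle, yet the groups overlap for every gene; Psme1 and Psmb5 have nearly equal means.

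The inducible catalytic subunits differed among themselves in level and in size of difference. Psmb8 encodes beta5i, which takes the place of the chymotrypsin-like beta5 subunit. It measured 184, 188, 235, 218 and 199.6 FPKM in GSK343 replicates 1 to 5, against 132, 216, 181, 154 and 137 FPKM in vehicle replicates 1, 2, 3, 5 and 6. Vehicle replicate 2 lay among the GSK343 tumours, and the other 4 vehicle tumours lay below all of them. The mean was 205 ± 21.3 FPKM in GSK343 tumours and 164 ± 34.7 FPKM in vehicle tumours (SD, n = 5; log2 fold change 0.34, SE 0.136, limma adjusted p = 0.245; exact permutation p = 0.0556).

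Psmb9, whose product beta1i replaces the caspase-like beta1 subunit, had the smallest p of the members. Its values were 58.2, 55.98, 84.2, 81.9 and 63.7 FPKM in GSK343 replicates 1 to 5, against 40.2, 62.8, 52.8, 46.2 and 35.1 FPKM in vehicle replicates 1, 2, 3, 5 and 6. GSK343 replicates 3, 4 and 5 lay above every vehicle tumour, and vehicle replicate 2 lay above GSK343 replicates 1 and 2. The means were 68.8 ± 13.3 and 47.4 ± 10.9 FPKM for GSK343 and vehicle (log2 fold change 0.54, 95% interval 0.16 to 0.91, limma adjusted p = 0.201; exact permutation p = 0.0317). The exact test uses every assignment of the 10 tumours to 2 groups of 5, is two-sided, cannot go below 0.00794, and was not adjusted over the members.

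Psmb10 encodes beta2i, the inducible form of the trypsin-like beta2 subunit. It measured 85.7, 94.2, 127, 122 and 100.4 FPKM in GSK343 replicates 1 to 5, against 75.5, 117, 88.2, 75.4 and 74.5 FPKM in vehicle replicates 1, 2, 3, 5 and 6. GSK343 replicates 3 and 4 were the highest of all tumours, but vehicle replicate 2 came next. The means, 106 ± 17.8 FPKM in GSK343 and 86.2 ± 18.3 FPKM in vehicle tumours, differed by about the spread within a group (log2 fold change 0.30, limma adjusted p = 0.329; exact permutation p = 0.111).

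Psmb5, the constitutive beta5 subunit, gave 65.4, 70.96, 72.8, 76.2 and 70.3 FPKM in GSK343 replicates 1 to 5, against 63.6, 84.9, 72.4, 77.0 and 63.8 FPKM in vehicle replicates 1, 2, 3, 5 and 6. The GSK343 tumours lay within the range of the vehicle tumours. The log2 fold change was -0.02 with a 95% interval of -0.21 to 0.18 (limma adjusted p = 0.939). A processed pseudogene 98.9% identical to most of the Psmb5 transcript (Gm3375) could share its reads.

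The PA28 subunits had point estimates of different size, and their ratio did not differ between the groups beyond the spread. Psme1, PA28 alpha, measured 153, 160.4, 170.2, 152 and 151 FPKM in GSK343 replicates 1 to 5, against 165, 186, 145, 169 and 119 FPKM in vehicle replicates 1, 2, 3, 5 and 6. All GSK343 tumours lay inside the vehicle range, and the log2 fold change was 0.02 (95% interval -0.23 to 0.26, limma adjusted p = 0.946). Psme2, PA28 beta and the most abundant member, measured 229.6, 219, 301, 248 and 275 FPKM in GSK343 replicates 1 to 5, against 159, 293, 217, 186 and 181 FPKM in vehicle replicates 1, 2, 3, 5 and 6. Again 4 vehicle tumours lay below all GSK343 tumours and vehicle replicate 2 near the top (log2 fold change 0.32, limma adjusted p = 0.319; exact permutation p = 0.0952).

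Psme2 has a protein-coding copy, Psme2b, that is 99.4% identical over 794 of its 962 transcript bases, so reads could have been split between them. Psme2b was listed at 73.3 ± 11.3 FPKM in GSK343 tumours and 58.99 ± 17.3 FPKM in vehicle tumours. With both lines summed, which was chosen after the data were seen, the log2 fold change was 0.33 (limma adjusted p = 0.324). The ratio of Psme2 to Psme1, products of which join in 1 ring, was 1.62 ± 0.188 in GSK343 tumours and 1.33 ± 0.278 in vehicle tumours (SD of the FPKM ratio, n = 5), and an exact permutation test of the log2 ratio gave p = 0.103.

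The transporter subunits had the largest standard errors of the members. Tap1 measured 71.9, 50.2, 91.2, 71.9 and 75.3 FPKM in GSK343 replicates 1 to 5, against 42.6, 67.5, 65.8, 42.1 and 30.9 FPKM in vehicle replicates 1, 2, 3, 5 and 6. GSK343 replicate 2 was low, between the vehicle tumours, and the other GSK343 tumours lay above all vehicle tumours. It had the highest log2 fold change of the members, 0.56, with the widest interval, 0.07 to 1.05 (limma adjusted p = 0.242; exact permutation p = 0.0476).

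Tap2 measured 40.2, 39.96, 49.9, 46.7 and 40.3 FPKM in GSK343 replicates 1 to 5, against 24.8, 52.6, 38.0, 27.8 and 24.7 FPKM in vehicle replicates 1, 2, 3, 5 and 6. Its highest value of all was in vehicle replicate 2, while the other 4 vehicle tumours were lower than every GSK343 tumour (log2 fold change 0.42, limma adjusted p = 0.295; exact permutation p = 0.103). The ratio of Tap1 to Tap2 was 1.66 ± 0.257 in GSK343 and 1.5 ± 0.229 in vehicle tumours (exact permutation p = 0.310). Psmb9 and Tap1, transcribed apart from a common promoter region, kept a ratio of 0.967 ± 0.152 in GSK343 and 0.982 ± 0.135 in vehicle tumours (exact permutation p = 0.881). By the deposited coordinates those ratios could share reads of the overlapping stretch, while the RefSeq start sites leave no overlap.

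Tapbp measured 141, 122, 176, 148 and 145 FPKM in GSK343 replicates 1 to 5, against 86.7, 157, 124, 89.2 and 81.4 FPKM in vehicle replicates 1, 2, 3, 5 and 6. GSK343 replicate 3 stood highest, vehicle replicate 2 next, and vehicle replicates 1, 5 and 6 lay well below every GSK343 tumour. The means were 147 ± 19.3 FPKM in GSK343 and 108 ± 32.4 FPKM in vehicle tumours (log2 fold change 0.48, 95% interval 0.08 to 0.88, limma adjusted p = 0.222; exact permutation p = 0.0714).

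Erap1, the least abundant member, measured 30.6, 25.1, 30.97, 25.1 and 32.3 FPKM in GSK343 replicates 1 to 5, against 16.3, 26.3, 27.6, 20.7 and 21.8 FPKM in vehicle replicates 1, 2, 3, 5 and 6. GSK343 replicates 1, 3 and 5 exceeded all vehicle tumours, and replicates 2 and 4 lay below vehicle replicates 2 and 3. The log2 fold change was 0.35 (95% interval 0.05 to 0.66, limma adjusted p = 0.238; exact permutation p = 0.0476).

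By the exact test, 3 of the 10 members, Psmb9, Tap1 and Erap1, had p under 0.05, all higher in GSK343 tumours, and 8.60% of all lines tested did so in that direction. These counts changed when single tumours were left out. The shares of 10.7% (limma) and 8.60% (exact test) are for all 10 tumours. Shares of all lines with a tumour left out are not given here. The number of lines called in those fits ranged from 3 to 96. Without vehicle replicate 2 the unadjusted limma p was under 0.05 for 8 of the 10 members and the exact p for 8. The limma count was 1 when GSK343 replicate 3 was left out and 3 when either replicate 4 or replicate 5 of that group was. It was 1 when either vehicle replicate 1 or vehicle replicate 5 was left out, and 2 when vehicle replicate 6 was. The exact count was 1 when either replicate 1 or replicate 4 of the GSK343 group was left out. It was 0 when any 1 of GSK343 replicates 3 and 5 and vehicle replicates 1, 5 and 6 was left out. No member was called by limma with any tumour left out.

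The same few tumours gave the extreme values of most members. Vehicle replicate 2 was the highest vehicle tumour for 9 of the 10 members and the highest of all 10 tumours for 3. GSK343 replicate 3 was the highest GSK343 tumour for 8 members and the highest of all for 6. Vehicle replicates 1 and 6 shared the lowest values of all 10 members, 4 in replicate 1 and 6 in replicate 6. Averaged over the 9 members other than Psmb5, the mean-centred log2(FPKM + 1) was 0.09, -0.01, 0.42, 0.24 and 0.19 in GSK343 replicates 1 to 5, and -0.42, 0.27, -0.0009, -0.29 and -0.49 in vehicle replicates 1, 2, 3, 5 and 6.

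Psmb8 followed the others most closely. Its centred values differed from the mean profile of the other 8 members by a root mean square of 0.0581 log2 units over the 10 tumours, while Erap1 differed by 0.198, Tap1 by 0.225 and Psme1 by 0.291. After the group means were removed, the difference was 0.0553 for Psmb8, 0.0772 for Tapbp and 0.0909 for Psme2, and 0.113 to 0.118 for Psmb9, Psmb10 and Tap2. Psme1, Tap1 and Erap1 did not follow the others closely within groups: they differed by 0.214, 0.197 and 0.198, where the profiles they were set against had a root mean square of 0.241, 0.212 and 0.235. Among 11321 other protein-coding genes, those closest to the average profile of the 9 members were Cdc42ep2 (root mean square difference 0.0706), H2-D1 (0.0735), Galk2 (0.0833), Ifi35 (0.0876), Pnp2 (0.0922) and Lap3 (0.0946), and the profile itself had a root mean square of 0.290. Cdc42ep2 encodes a Cdc42 effector, H2-D1 a class I heavy chain, Galk2 a sugar kinase, Ifi35 an interferon-induced protein, Pnp2 a purine nucleoside phosphorylase and Lap3 a leucine aminopeptidase. Within groups, the closest were Ifi35 (0.0559), H2-D1 (0.0565), Cdc42ep2 (0.0645), Pck2 (0.0669), Idnk (0.0672) and Lap3 (0.0703). These are distances over 10 tumours with no test.

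**Figure D2:**
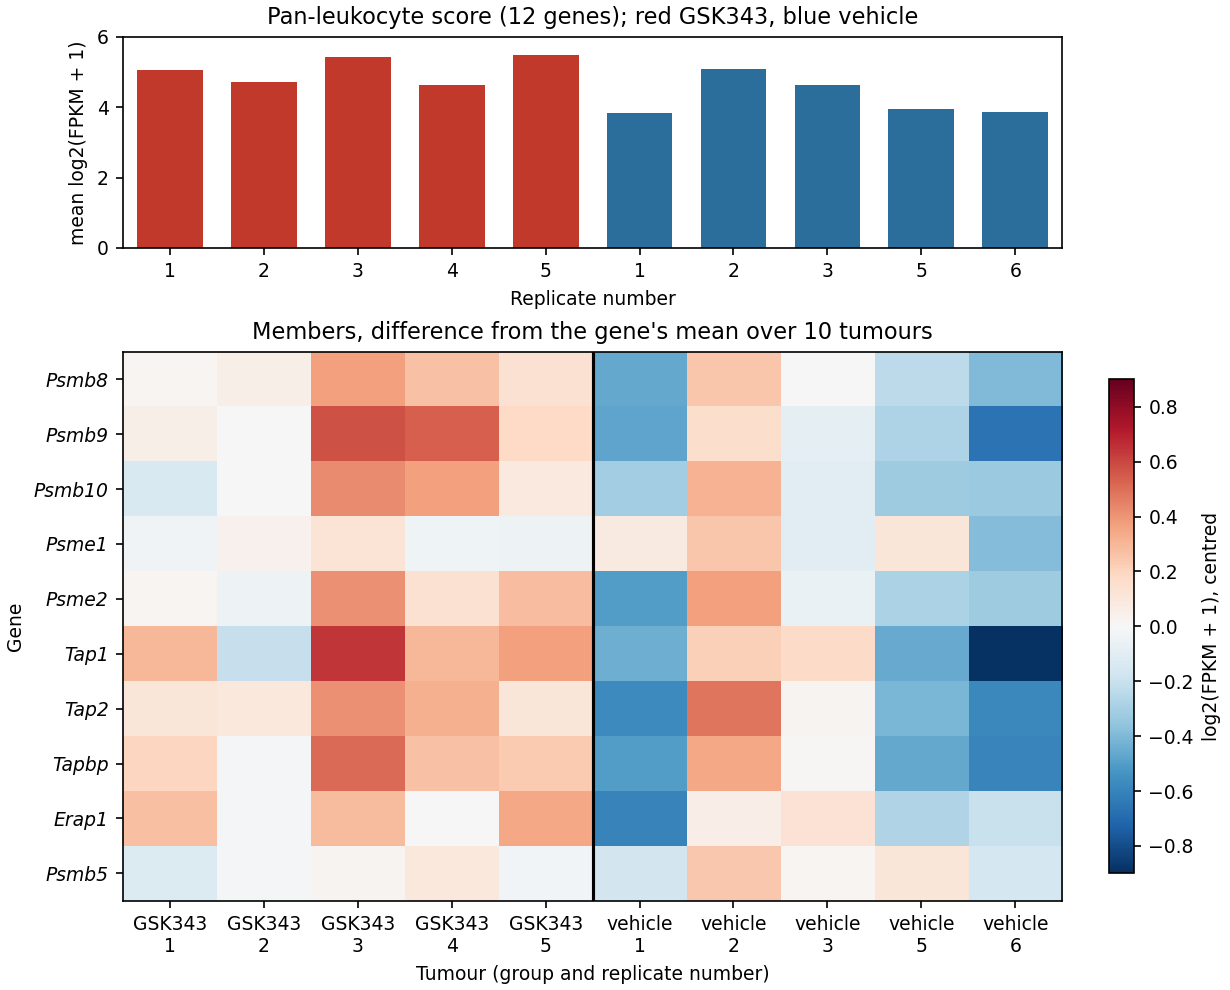
Above, the pan-leukocyte score of each tumour, the mean log2(FPKM + 1) of 12 leukocyte genes, GSK343 in red and vehicle in blue; below, each member's log2(FPKM + 1) minus its mean over the 10 tumours. GSK343 replicate 3 and vehicle replicate 2 stand out as high and vehicle replicates 1 and 6 as low over most members. Vehicle replicate 2 also has the highest score of its group, 5.09. In the GSK343 group the score and the members do not rank the tumours alike. Replicate 4 has the lowest score, 4.62, and replicate 5 the highest, 5.47. Their centred values, averaged over the members other than Psmb5, are 0.24 and 0.19.

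Leukocyte markers were also higher on average in GSK343 tumours, without a call. Of 12 pan-leukocyte genes, 11 had higher means in GSK343 tumours and 9 were at an unadjusted limma p under 0.05. Ptprc, the leukocyte surface phosphatase CD45, measured 19.04 ± 11.6 FPKM in GSK343 and 3.79 ± 2.28 FPKM in vehicle tumours (limma adjusted p = 0.191), Lcp2, an adaptor of T cell receptor signalling, 15.8 ± 3.76 and 8.98 ± 3.84 FPKM, and Coro1a, a leukocyte actin regulator, 78.6 ± 13.4 and 48.9 ± 19.9 FPKM. The 12 genes summed to 559 to 968 FPKM in GSK343 tumours and 282 to 811 FPKM in vehicle tumours, and none was listed at 0 in any tumour. Their mean log2(FPKM + 1) was 5.04, 4.72, 5.41, 4.62 and 5.47 in GSK343 replicates 1 to 5, and 3.84, 5.09, 4.61, 3.95 and 3.86 in vehicle replicates 1, 2, 3, 5 and 6. In bulk tumours, fewer cells of a type and less RNA per cell cannot be told apart, nor can transcripts of leukocytes and of hepatoma cells.

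With that score as a covariate, the log2 fold changes of the members ran from -0.13 (Psmb5) to 0.23 (Psmb9), and none had an unadjusted limma p under 0.05. The share of all lines at that level in this fit is not given here. Of all lines, 2 were called with the covariate and 12 without it. Psmb8 stood at 0.04 (95% interval -0.24 to 0.33), Tap1 at 0.03 (-0.38 to 0.44), Tapbp at 0.03 (-0.26 to 0.32), Erap1 at 0.03 (-0.23 to 0.29) and Psmb10 at 0.03 (-0.34 to 0.40). Tap2 stood at -0.02, Psme2 at -0.08 and Psme1 at -0.10, with a negative sign that they did not have without the covariate. Psmb9 had the widest distance from 0, with an interval of -0.19 to 0.66. The limma adjusted p was 0.998 for every member. The score was itself higher on average in GSK343 tumours, so this fit cannot separate leukocyte content from treatment.

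Markers of single cell types were examined too. Of the macrophage and monocyte genes 7 of 8 had higher means in GSK343 tumours, and their sum ranged over 588 to 1391 FPKM in GSK343 and 281 to 1054 FPKM in vehicle tumours. The 8 T cell genes all had higher means, with sums of 85.2 to 221 FPKM in GSK343 and 44.3 to 150.2 FPKM in vehicle tumours. Of the natural killer cell genes 2 of 6 were expressed highly enough to test, both higher, and the 6 summed to 24.6 to 96.1 FPKM in GSK343 and 20.5 to 67.7 FPKM in vehicle tumours, with Klra8 listed at 0 in 1 GSK343 and 2 vehicle tumours. On average most of that sum was Nkg7, at a mean of 47.7 FPKM in GSK343 and 27.7 FPKM in vehicle tumours. All 3 tested of 5 dendritic cell genes were higher, with sums of 29.8 to 62.8 FPKM against 7.99 to 48.9 FPKM in vehicle. Itgax made up most of the dendritic cell sums on average, at a mean of 41.9 FPKM in GSK343 and 18.8 FPKM in vehicle tumours. None of 4 B cell genes was tested, and they summed to 1.22 to 3.75 FPKM in GSK343 and 0.265 to 4.00 FPKM in vehicle tumours, with Ms4a1 listed at 0 in 1 vehicle tumour.

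Among other cells, fibroblast genes (4 of 5 higher) summed to 1277 to 1882 FPKM in GSK343 and 1351 to 1661 FPKM in vehicle tumours. Most of the fibroblast sum was Dcn, the gene with a lower mean, at 1082 FPKM in GSK343 and 1169 FPKM in vehicle tumours. Endothelial genes (3 of 3 tested higher, of 4) summed to 22.5 to 37.2 FPKM in GSK343 and 17.9 to 33.6 FPKM in vehicle tumours. Skeletal muscle genes (4 of 4 higher) summed to 38.5 to 276 FPKM in GSK343 and 0.811 to 69.6 FPKM in vehicle tumours, with Myl1 and Ckm listed at 0 in 1 vehicle tumour each. Hepatoma genes had lower means in GSK343 tumours for 9 of 10, and summed to 8110 to 9274 FPKM in GSK343 and 7964 to 11623 FPKM in vehicle tumours. Of these Apoa1, the main protein of high-density lipoprotein, measured 39.98 ± 16.1 FPKM in GSK343 and 79.7 ± 34.7 FPKM in vehicle tumours (limma adjusted p = 0.202). No gene of these lists was called, and the part of each cell type in the members' values was not tested.

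Relative to Psmb5 in the same tumour, the differences of the members were larger against their spread, though none was called. In the fit with log2(Psmb5 + 1) subtracted from every line, 8 of the 9 other members had an unadjusted limma p under 0.05 and higher values in GSK343 tumours, against 10.7% of the 14495 lines; 0.166% of lines were called and no member was (smallest adjusted p 0.109, Psmb9). The ninth, Psme1, had a log2 difference of 0.04 (95% interval -0.20 to 0.27). Adjusted for the leukocyte score, 1 of the 9, Psmb9, had an unadjusted limma p under 0.05 relative to Psmb5. The share of all lines at that level in this adjusted fit is not given here. The log2 differences were then 0.18 for Psmb8, 0.37 for Psmb9, 0.16 for Psmb10, Tap1, Tapbp and Erap1, 0.11 for Tap2, 0.055 for Psme2 and 0.03 for Psme1, and the limma adjusted p of these 9 was 0.673 or more. All 9 ratios share the Psmb5 values, so they are not independent of each other.

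The ratio of Psmb8 to Psmb5 sets the inducible beta5 subunit against the one it replaces. It was 2.81, 2.65, 3.22, 2.86 and 2.84 in GSK343 replicates 1 to 5, and 2.07, 2.54, 2.50, 2.0 and 2.15 in vehicle replicates 1, 2, 3, 5 and 6. Every GSK343 tumour lay above every vehicle tumour (log2 difference 0.35, 95% interval 0.13 to 0.58, limma adjusted p = 0.147; exact permutation p = 0.00794, the smallest possible). Psmb9 over Psmb5 separated the groups likewise, at 0.789 to 1.16 in GSK343 and 0.549 to 0.740 in vehicle tumours (limma adjusted p = 0.109; exact permutation p = 0.00794), and 1.85% of all lines separated upwards in this way relative to Psmb5. Vehicle replicate 2, whose Psmb8 and Psmb9 values lay within the GSK343 range, had the highest Psmb5 of all tumours, 84.9 FPKM. By the exact test 8 of the 9 ratios had p under 0.05, against 9.04% of lines in that direction. The adjusted p of the 8 in limma were 0.109 to 0.274.

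The other inducible subunits were set against their own partners, and the sizes of the differences were not tested against each other. The ratio of Psmb9 to Psmb6, which encodes beta1, was 0.325, 0.307, 0.434, 0.398 and 0.342 in GSK343 replicates 1 to 5, and 0.228, 0.312, 0.289, 0.237 and 0.197 in vehicle replicates 1, 2, 3, 5 and 6. Only vehicle replicate 2 entered the range of the GSK343 tumours, just above replicate 2 of that group (log2 difference 0.51, 95% interval 0.21 to 0.82, limma adjusted p = 0.217; exact permutation p = 0.0159). The ratio of Psmb10 to Psmb7, which encodes beta2, averaged 0.736 ± 0.107 in GSK343 and 0.627 ± 0.0906 in vehicle tumours and overlapped widely (log2 difference 0.23, 95% interval -0.04 to 0.50, limma adjusted p = 0.351; exact permutation p = 0.111). Of all lines, 0.110% were called relative to Psmb6 and 0.0345% relative to Psmb7. Psmb6 and Psmb7 themselves measured 189 ± 10.8 and 143 ± 4.37 FPKM in GSK343 tumours and 187 ± 11.1 and 137 ± 12.1 FPKM in vehicle tumours. By the listed values, Psmb8 was the only inducible subunit with more transcript than its partner, 2.0 to 3.22 times as much in each tumour. The pseudogene Gm3375 could share reads of Psmb5, which would affect that ratio.

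**Figure D3:**
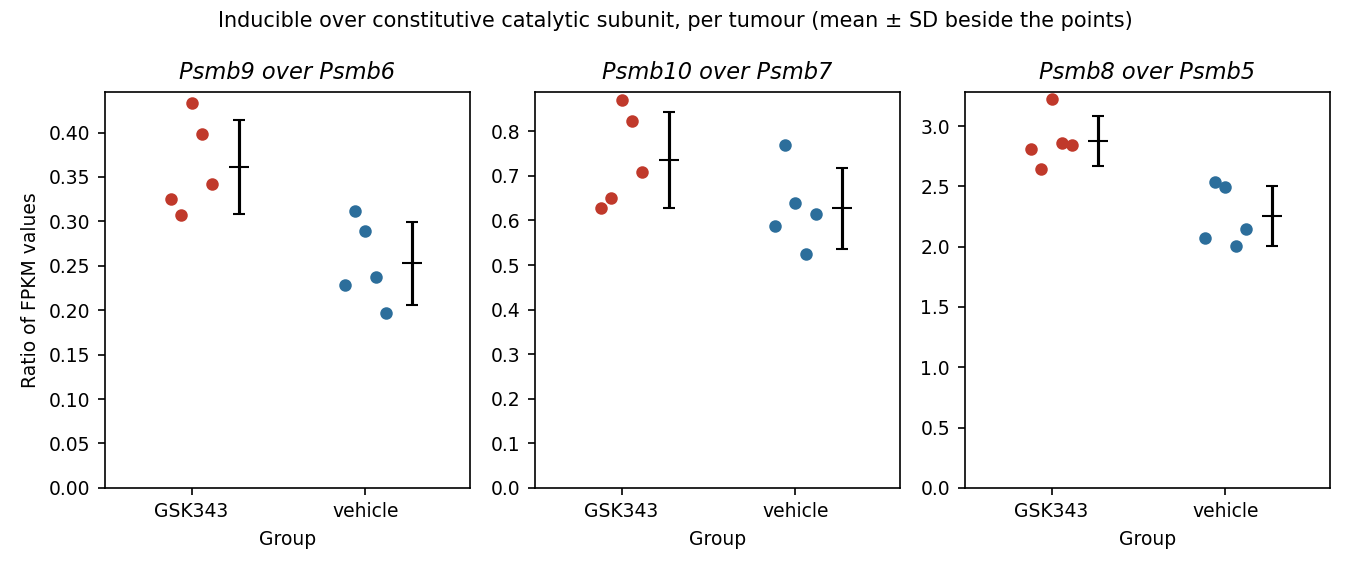
Ratio of FPKM values of each inducible catalytic subunit to its constitutive partner in every tumour, GSK343 left and vehicle right, with mean and SD of 5 tumours beside the points; axes start at 0. The groups separate for Psmb8 over Psmb5, touch through vehicle replicate 2 for Psmb9 over Psmb6, and overlap for Psmb10 over Psmb7.

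**Figure D4:**
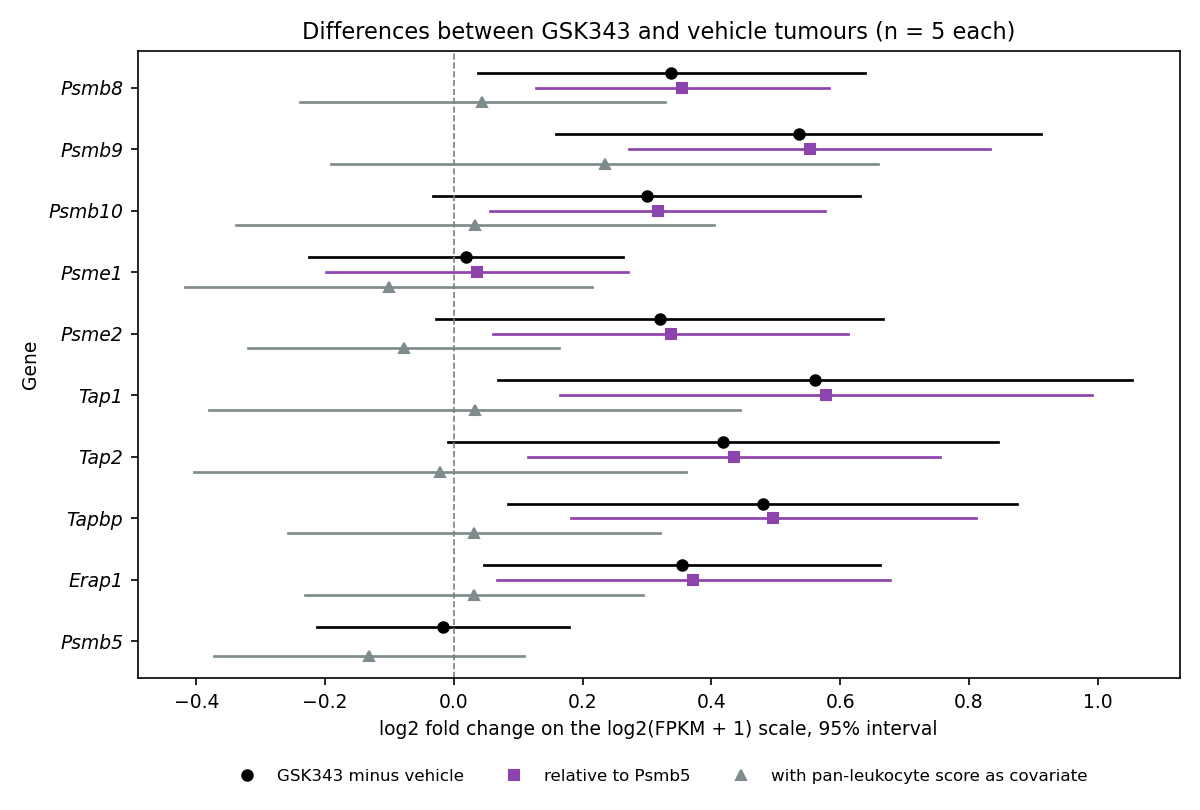
Log2 fold change of each member with its 95% interval from limma: between the groups (black), relative to Psmb5 (purple) and adjusted for the pan-leukocyte score (grey). The purple intervals lie above 0 for 8 of 9 genes, and all grey intervals include 0.

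Genes of the rest of the proteasome had mostly small differences in both directions. Of the 13 other constitutive subunits of the 20S core, 8 had a positive and 5 a negative log2 fold change, GSK343 minus vehicle. The median log2 fold change was 0.0019, and none was at an unadjusted limma p under 0.05. Psma7, an outer ring subunit, measured 139 ± 11.3 FPKM in GSK343 and 161 ± 22.3 FPKM in vehicle tumours, Psmb1 112 ± 15.9 and 90.3 ± 25.3 FPKM, and Psmb4 254 ± 18.2 and 273 ± 14.9 FPKM (limma adjusted p = 0.324, 0.333 and 0.433). Psmb1 was an exception to the small differences. Its log2 fold change of 0.33 lay between those of the members Psme2 (0.32) and Psmb8 (0.34). Of 18 subunits of the 19S regulator, which recognises ubiquitin chains and unfolds substrates, 12 had lower means in GSK343 tumours, 4 of them at an unadjusted limma p under 0.05, with a median log2 fold change of -0.05; 6.86% of all lines tested were lower at that level. Psmd13 (79.2 ± 4.74 against 89.8 ± 3.83 FPKM in vehicle), the ubiquitin receptor Psmd4 (98.1 ± 8.56 against 113 ± 8.56 FPKM) and the ubiquitin receptor Adrm1 (35.99 ± 3.56 against 42.3 ± 3.88 FPKM) had the smallest p of that list, and none was called.

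Proteasome assembly factors had lower means in GSK343 tumours for 7 of 8 (median log2 fold change -0.13), none at an unadjusted limma p under 0.05; Psmg2 measured 41.3 ± 1.77 FPKM in GSK343 and 45.4 ± 4.31 FPKM in vehicle tumours, Psmg3 30.7 ± 2.85 and 34.2 ± 3.66 FPKM, and Psmd9 16.8 ± 1.90 and 18.5 ± 1.11 FPKM. Of the other activators, the PA28 gamma gene Psme3 measured 41.8 ± 2.57 FPKM in GSK343 and 43.4 ± 3.93 FPKM in vehicle tumours, Psme4, which encodes PA200, 18.1 ± 1.76 and 19.8 ± 0.429 FPKM, and the inhibitor Psmf1 13.1 ± 4.49 and 18.3 ± 1.76 FPKM (unadjusted limma p under 0.05, adjusted p = 0.247). Transcripts of the thymus subunit Psmb11 and the testis subunit Psma8 were below the filter, at 0.00222 ± 0.00497 and 0.199 ± 0.149 FPKM in GSK343 tumours and 0.000488 ± 0.00109 and 0.116 ± 0.0960 FPKM in vehicle tumours.

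Downstream of the transporter, 6 of 7 genes of class I loading and quality control had higher means in GSK343 tumours, 2 of them at an unadjusted limma p under 0.05 (median log2 fold change 0.09). B2m, the light chain of class I molecules, measured 3320.3 ± 476 FPKM in GSK343 and 2601 ± 298 FPKM in vehicle tumours (limma adjusted p = 0.210), and Tapbpl, the tapasin-related peptide editor TAPBPR, measured 31.6 ± 4.77 and 23.3 ± 5.42 FPKM (limma adjusted p = 0.218). Canx, the general chaperone calnexin, stood lower at 179 ± 16.8 FPKM in GSK343 and 195 ± 12.3 FPKM in vehicle tumours. All 7 class I heavy chain genes had higher means, 5 at an unadjusted limma p under 0.05 and none called, among them H2-M3 (24.8 ± 3.77 against 16.99 ± 4.44 FPKM in vehicle), H2-Q6 (86.6 ± 18.2 against 47.6 ± 26.1 FPKM) and H2-Q4 (191 ± 19.3 against 157 ± 17.5 FPKM), and reads of these close relatives may be shared.

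Other peptidases that trim or destroy peptides were divided, 4 of 8 higher and 4 lower (median log2 fold change -0.02). The smallest p were those of Blmh, bleomycin hydrolase, at 28.95 ± 2.74 FPKM in GSK343 and 33.5 ± 1.25 FPKM in vehicle tumours, Npepps, puromycin-sensitive aminopeptidase, at 33.5 ± 4.66 and 38.8 ± 4.32 FPKM, and Lap3 at 55.8 ± 8.30 and 47.8 ± 12.6 FPKM, none of them called. Of 12 genes listed as regulators of the members, 10 had higher means in GSK343 tumours (median log2 fold change 0.28). Of these, 7 were at an unadjusted limma p under 0.05, and none was called. The 2 with lower means were Irf1, at 138 ± 53.8 FPKM in GSK343 and 152 ± 56.9 FPKM in vehicle tumours, and Ifngr1, at 32.2 ± 4.52 and 44.6 ± 22.9 FPKM (limma adjusted p = 0.850 and 0.581). Stat2, a transcription factor of the type I interferon response, measured 16.8 ± 6.54 FPKM in GSK343 and 7.83 ± 3.37 FPKM in vehicle tumours (limma adjusted p = 0.191). Ifng, which encodes interferon gamma, measured 9.83 ± 6.77 FPKM in GSK343 and 3.36 ± 2.62 FPKM in vehicle tumours (limma adjusted p = 0.210).

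**Figure D5:**
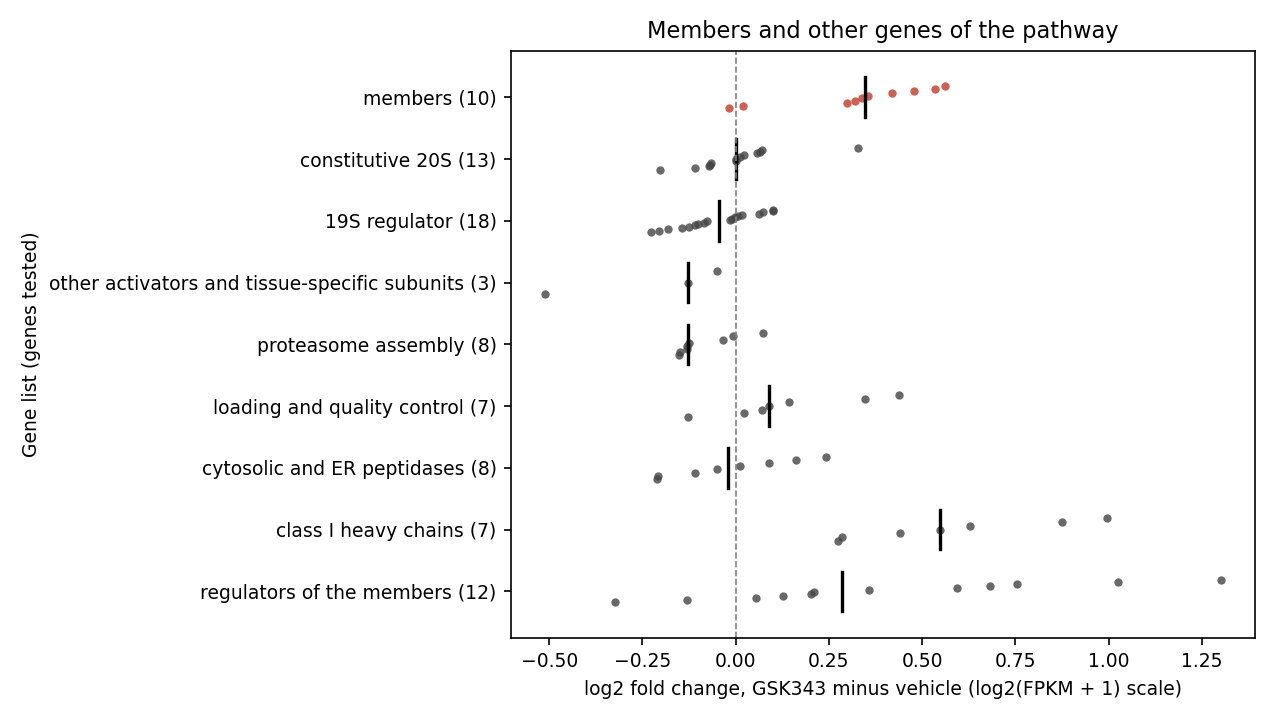
Log2 fold change, GSK343 minus vehicle, of the 10 members (red) and of 8 other gene lists of the pathway, 1 point per gene tested, with the median as a black bar. The medians are 0.35 for the members, 0.0019 for the other 20S subunits, -0.05 for the 19S regulator and 0.55 for the class I heavy chains; no gene shown was called.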

How the data were processed

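Poly-A RNA sequencing of 10 Hepa1-6 tumours gave 1 value per gene and tumour. The tools used were Trimmomatic 0.33, HISAT2 2.1.0 and StringTie 1.3.3b on mm10, per the submitters' processing notes; their options, the annotation release and whether strand was used are not stated in the sources used here. The deposited values carry no unit in the header and were read as FPKM made by the authors, since they are fractional and sum to different totals. They hold no counts, so no counting interval is given and depth enters only through the spread between tumours. From them, log2(FPKM + 1) was tested in R 4.3.3 by limma 3.58.1 with its trend option, for 14496 lines whose mean reached 1 FPKM, two-sided, adjusted over all lines by Benjamini-Hochberg; low genes have their change understated on that scale. Fits relative to Psmb5, Psmb6 or Psmb7 subtract that gene's value in each tumour first. Exact permutation tests used every assignment of the tumours. The members, the 8 pathway lists and the 10 marker lists were chosen with earlier results of these data known. Named genes are the members, the 3 genes of a list with the smallest p, and the 6 nearest genes by root mean square difference; of the marker lists other than pan-leukocyte, fewer are named, and some genes the rule names are not reported here. Afp, Alb, Psmb6 and Psmb7 are named as fixed checks or partners, and Irf1 and Ifngr1 as the regulators with lower means. Nkg7, Itgax and Dcn are named as the largest part of the sum of their list. A search for near-identical copies used GENCODE M21 transcripts. The protein comparison planned was not run. Alternatives covered filter, pseudocount, scaling, the replicate block, variance model, a leukocyte covariate, tumour weights, summed lines, left-out tumours and the threshold. Plots were drawn with matplotlib 3.10.9.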

Additional observations from a re-analysis of the deposited data

How the results depend on the processing

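In all alternatives run, no member was called between the groups or relative to Psmb5, and no partner pair was called. The number of lines called, 12, was 7 at a mean of at least 0.1 FPKM, 6 with no filter, 3 at a mean of at least 5 FPKM, 7 with quantile normalization, 2 with the pan-leukocyte covariate, 4 without GSK343 replicates 3 and 5, and 33 at an adjusted p under 0.1. With single tumours left out it ranged from 3 to 96. The 5 members at an unadjusted limma p under 0.05 became 8 with tumour weights, 0 with the covariate, 1 without GSK343 replicates 3 and 5, and 1 to 8 with single tumours left out. Relative to Psmb5 the 8 became 1 with the covariate, 4 without GSK343 replicates 3 and 5, and 5 to 8 with single tumours left out. The 3 members by the exact test became 0 without GSK343 replicates 3 and 5 and 0 to 8 with single tumours left out. Shares of all lines at an unadjusted or exact p under 0.05 in these alternatives are not given here. The cause of the changes was not tested.

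Sign changes touched 4 members. Log2 differences with the covariate were -0.101 for Psme1, -0.0778 for Psme2 and -0.0220 for Tap2. Psme1 stood at -0.000105 without GSK343 replicates 3 and 5, and with single tumours left out ranged from -0.0759 (no vehicle replicate 6) to 0.0837 (no vehicle replicate 2). Relative to Psmb5 its range was -0.0166 (no vehicle replicate 6) to 0.103 (no vehicle replicate 1). Psmb5 ranged from -0.0605 (no vehicle replicate 1) to 0.0421 (no vehicle replicate 2).

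The labels do not say whether the replicate numbers pair the tumours, and the values showed no pairing by number. The correlation of same-numbered tumours' deviations from their group means was -0.33 to 0.03 over 4 shared numbers. No GSK343 tumour with a shared number correlated best with the vehicle tumour of that number. A lack of correlation cannot exclude a pairing. With the replicate block 2 lines were called, 0 members were at an unadjusted limma p under 0.05, 5 were so relative to Psmb5, and Psme1 stood at -0.0637. The share of all lines at that level with the block is not given here either.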
